A study of Rattus norvegicus with 6 samples.

Results

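The ribosomal protein genes described here are the 146 genes, of 33455 in the deposited rat gene count table, whose symbols follow the standard names of cytosolic ribosomal proteins (Rpl, Rps, Rplp0 to Rplp2 and Rpsa) or of mitochondrial ribosomal proteins (Mrpl and Mrps followed by a number). The rule reads the symbol and uses no measured value. Of these, 71 encode proteins of the cytosolic ribosome (40 of the large subunit and 31 of the small subunit) and 75 encode proteins of the mitochondrial ribosome (49 of the large subunit and 26 of the small subunit). RNA came from the core of the lesion, at the injured T9 segment, in wild-type rats with a contusion injury of the spinal cord. A group labelled Gel+US was compared with a group labelled Piezo Gel+US, with 3 libraries each that the labels call biological replicates. Both groups carried the injury and both received ultrasound over the back at 100 Hz and 1.0 W/cm2 for 10 min a day over 4 weeks, so the groups differ, as far as the labels say, in whether the gel was the Piezo Gel. The composition of each gel, the age and sex of the animals and the day of collection are not given in the sources used here, and no uninjured or unstimulated animals are in the comparison. Values per library are listed throughout in the order replicates 1, 2 and 3 of Gel+US and then replicates 1, 2 and 3 of Piezo Gel+US.

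The cytosolic ribosome translates the messenger RNAs made in the nucleus, and nearly every cell makes its proteins in about equal numbers of each. Most of their messenger RNAs begin with a run of pyrimidines at the cap, the 5′ terminal oligopyrimidine (TOP) tract, through which mTOR signalling and the binding protein Larp1 set their translation and stability. The mitochondrial ribosome is a separate machine that makes the few proteins encoded in mitochondrial DNA, all of them subunits of the respiratory chain and ATP synthase. Its proteins are encoded in the nucleus, made in the cytosol and imported. Neurons, glia, fibroblasts and immune cells of an injured cord all carry both ribosomes, in amounts that follow their rates of growth and respiration.

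The sequence at the start of these genes holds a feature that was found more often in the cytosolic family. RefSeq promoter windows of the rat assembly GRCr8, which run from 250 bases before to 50 bases after the annotated start, matched 57 of the 71 cytosolic and 57 of the 75 mitochondrial genes by symbol. The windows shown here run from 50 bases before the start to 10 bases after it, 5′ to 3′ on the gene's strand, and the capitals mark the run of C and T that begins with a C at the first transcribed base. These 5 cytosolic genes include the member with the lowest p-value between the groups (Rpl22), the ribosomal protein of the acidic stalk that holds the others (Rplp0) and the tested cytosolic member with the lowest level (Rps26).
Rpl22, chr5:168117911-168117970, plus strand: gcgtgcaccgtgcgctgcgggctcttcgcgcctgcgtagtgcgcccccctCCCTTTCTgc
Rplp0, chr12:46718381-46718440, minus strand: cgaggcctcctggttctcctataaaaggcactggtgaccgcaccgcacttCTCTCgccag
Rps26, chr7:1643395-1643454, minus strand: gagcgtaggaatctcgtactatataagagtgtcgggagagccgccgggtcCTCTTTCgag
Rpl28, chr1:78083523-78083582, minus strand: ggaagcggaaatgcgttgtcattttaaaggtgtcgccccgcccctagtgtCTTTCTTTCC
Rpl10, chrX:157205800-157205859, plus strand: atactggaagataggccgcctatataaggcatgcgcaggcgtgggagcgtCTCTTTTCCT

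A run of this kind, a C at the first base followed by C or T at each of the next 4, stood at the start of 23 of 57 cytosolic windows (40.4%), of 2 of 57 mitochondrial windows (3.51%; Mrpl4 and Mrps5) and of 2.52% of all 21842 windows of protein-coding genes. Where the run could begin within 5 bases of the annotated start, it was found in 66.7% of cytosolic, 24.6% of mitochondrial and 16.6% of protein-coding windows. Annotated starts can be off by a few bases, so the strict count depends on the annotation. The core sequence bound by ETS factors, CCGGAA on either strand, was about equally frequent in the families. It stood in 31 of 57 cytosolic windows (54.4%) and in 30 of 57 mitochondrial windows (52.6%), against 17.7% of protein-coding windows. The motif AAGATGG of the factor YY1, on either strand, stood in 14.0% of cytosolic, 24.6% of mitochondrial and 7.29% of protein-coding windows. The oligopyrimidine start and the ETS core overlapped in 6 cytosolic windows and 1 mitochondrial window, and the YY1 motif overlapped neither of the others. Windows with the ETS core in capitals (TTCCGG is CCGGAA read on the other strand) are shown for the mitochondrial members with the highest and the lowest level (Mrpl52 and Mrps10), for the mitochondrial member with the lowest fold change (Mrpl1), for the mitochondrial stalk base (Mrpl10) and for 1 cytosolic gene (Rpl38).
Mrpl52, chr15:31852886-31852945, plus strand: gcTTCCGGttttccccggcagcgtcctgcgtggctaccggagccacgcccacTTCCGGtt
Mrps10, chr9:21122444-21122503, minus strand: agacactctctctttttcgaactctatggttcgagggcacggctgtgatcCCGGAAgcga
Mrpl1, chr14:13663512-13663571, minus strand: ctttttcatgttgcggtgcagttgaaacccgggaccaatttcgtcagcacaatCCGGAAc
Mrpl10, chr10:82522420-82522479, plus strand: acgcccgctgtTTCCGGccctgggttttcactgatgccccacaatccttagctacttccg
Rpl38, chr10:100200385-100200444, plus strand: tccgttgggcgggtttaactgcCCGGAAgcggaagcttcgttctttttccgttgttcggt

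**Figure D1:**
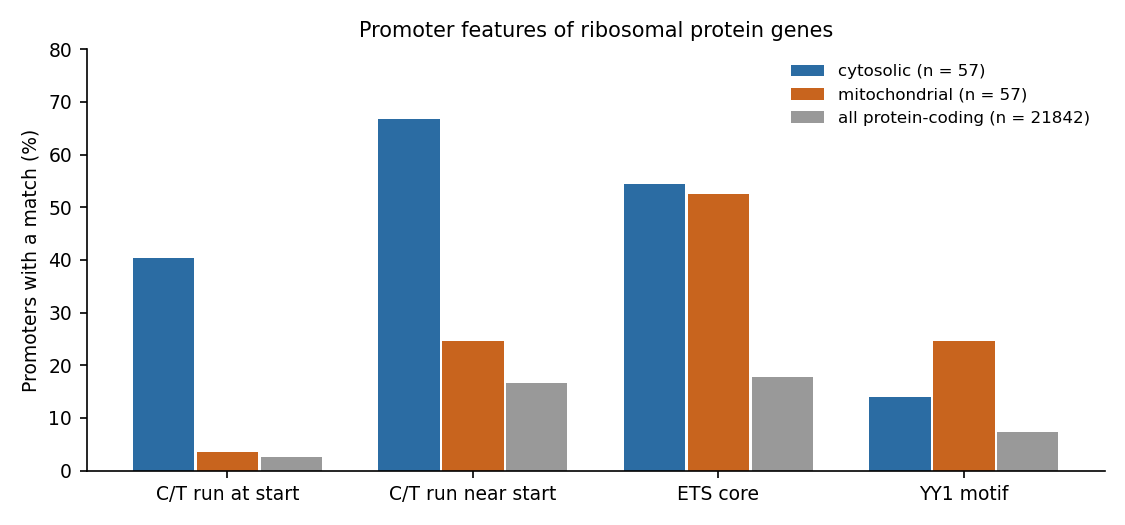
Share of RefSeq promoter windows (y axis, percent) with each sequence feature (x axis), for 57 cytosolic genes, 57 mitochondrial genes and 21842 protein-coding genes. The C/T run at the start was found in 40.4% of cytosolic and 3.51% of mitochondrial windows, while the ETS core was found in 54.4% and 52.6%.

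Library totals ran from 17212653 to 21436820 counts, and the 100 genes with the most counts held 19.9% to 24.3% of each library. The tissue label was checked with marker lists. Neuronal, oligodendrocyte and astrocyte markers were present in all 6 libraries, and the makeup differed widely between libraries of 1 group. The summed level of 10 neuronal markers, in counts scaled to a common library size (CPM), ran from 1970.5 to 13582 in Gel+US and from 1518.5 to 6697.9 in Piezo Gel+US, and that of 6 fibroblast markers from 671 to 6611 and from 1070 to 5835. Piezo Gel+US replicate 2 stood apart in its Schwann cell markers (6 of the 8 listed have a row), with a sum of 70539 CPM where the other 5 libraries lay between 4441.5 and 12886. Between the groups, none of 17066 tested genes had an adjusted p below 0.05 (0% called; lowest adjusted p 0.994, edgeR quasi-likelihood test with Benjamini-Hochberg adjustment), 359 (2.1%) had an unadjusted p below 0.05 and DESeq2 called 0 genes as well.

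Messenger RNAs of the cytosolic ribosome were the abundant family. They took 1.09%, 1.67%, 0.853%, 1.17%, 1.57% and 1.35% of all counts, while those of the mitochondrial ribosome took 0.138%, 0.144%, 0.154%, 0.144%, 0.150% and 0.140%. Levels of single genes are compared here as CPM per kilobase of the deposited gene length. The median tested cytosolic member had 243 CPM per kilobase and the median tested mitochondrial member 18.5, a ratio of 13.1, against 7.87 for the median of all tested genes. Cytosolic members ranged from 4.85 CPM per kilobase for Rps26, which lines the channel where messenger RNA leaves the small subunit, to 580 for Rpl26, which sits near the exit of the nascent chain. Rps14 (536) and Rpl13a (527) followed Rpl26, and Rpl22 (21.3) stood next above Rps26. Mitochondrial members ranged from 3.38 for Mrps10 to 59.7 for Mrpl52, with Mrpl33 (37.7) and Mrpl20 (37.3) next at the top and Mrpl50 (3.60) next at the bottom. The ranges overlapped little: the highest mitochondrial member exceeded 4 of the 70 tested cytosolic members. The remaining members had no counts in any library and were not tested, namely Rpl21, Mrpl36 and Mrpl55.

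The number of rows that share a protein's sequence limits these levels. Every cytosolic member has further rows in the table, named by locus number and described as that protein's pseudogene or as similar to it, 1382 rows in all, with a median of 19 and at most 59 for 1 member. They held 13.5% of the counts of the members and these rows together. For 6 members they held over 50% of the counts: Rpl21 (100%, 163 counts in 47 rows, none in the row of that symbol), Rpl19 (70.9%), Rpl34 (67.0%), Rplp0 (54.0%), Rps23 (53.1%) and Rps10 (50.6%). For 32 cytosolic members they held under 5%. Mitochondrial members had 55 such rows, for 28 of 75 genes, with 1.04% of the counts. Reads of a gene and of a near-identical copy can be split or dropped by the counting, so the level of a cytosolic member with many copies is uncertain. Adding the copies to their members moved the median log2 fold change of the cytosolic family from 0.25 to 0.24.

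The cytosolic family varied from library to library mostly as 1 block, and the mitochondrial family did not. The summed cytosolic level was 10685, 15981 and 8632 CPM in Gel+US and 11629, 16898 and 13332 CPM in Piezo Gel+US. It was highest in the second library of each group and lowest in the third Gel+US library, and the range of Gel+US reached over the values of 2 of the 3 Piezo Gel+US libraries. The means were 11766 ± 3792 (SD, n = 3) and 13953 ± 2689 CPM (SD, n = 3), a ratio of 1.19, with a difference smaller than the SD of either group. In each of the 3 pairs of libraries with the same replicate number the Piezo Gel+US sum was the higher. The labels do not say that these numbers pair the libraries. The summed mitochondrial level was 1348, 1373 and 1557 CPM in Gel+US and 1435, 1622 and 1388 CPM in Piezo Gel+US. The means were 1426 ± 114 and 1482 ± 124 CPM (SD, n = 3 each), a ratio of 1.04, with the groups overlapping. From the lowest to the highest library the cytosolic sum differed 1.96-fold and the mitochondrial sum 1.203-fold. The ratio of the cytosolic to the mitochondrial sum was 7.93, 11.6 and 5.54 in Gel+US and 8.10, 10.4 and 9.60 in Piezo Gel+US, so the lowest and the highest ratio were both in Gel+US. In bulk tissue, fewer cells of a type with much ribosomal protein RNA and less of that RNA per cell cannot be told apart.

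**Figure D2:**
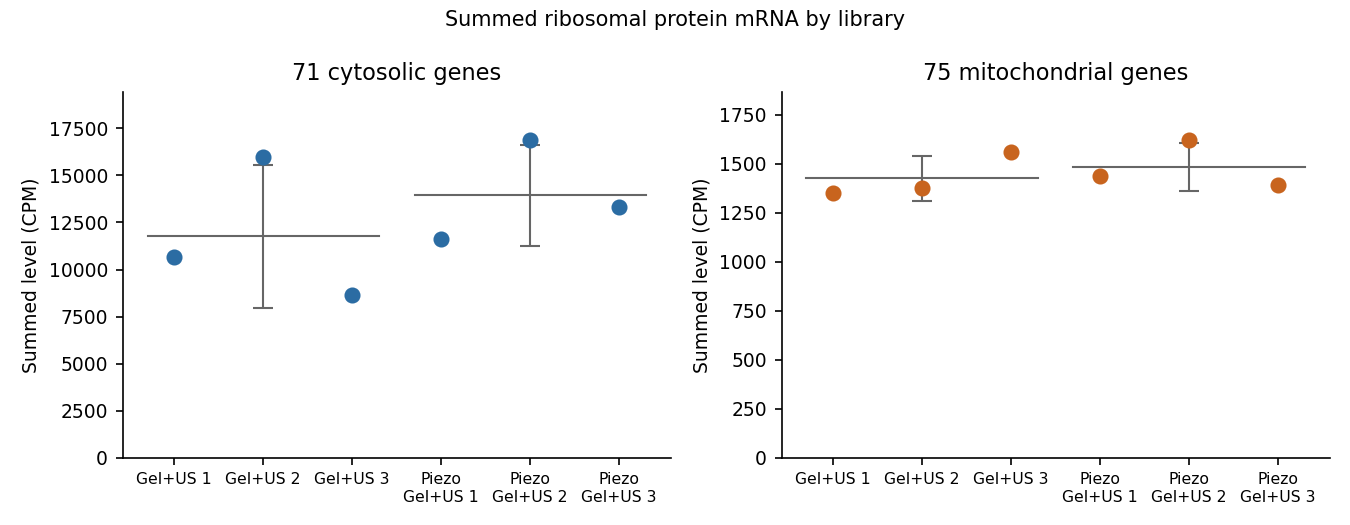
Summed level of all 71 cytosolic (left) and all 75 mitochondrial (right) ribosomal protein genes in CPM (y axis, from 0) in each library (x axis). Points are libraries, horizontal lines are group means and bars are 1 SD (n = 3); the cytosolic sum ran from 8632 to 16898 CPM and the mitochondrial sum from 1348 to 1622 CPM.

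How far the members moved together was described with each gene's log2 CPM minus its own mean over the 6 libraries. Averaged over the 70 tested cytosolic members, this deviation was -0.23, 0.40, -0.58, -0.05, 0.39 and 0.07, and the average alone held 81.4% of the squared deviation of all members. Averaged over the 73 tested mitochondrial members it was -0.10, -0.07, 0.10, -0.01, 0.15 and -0.07, and held 15.8%. Within a library, the SD of the members around their average was 0.115 to 0.215 for the cytosolic family and 0.144 to 0.310 for the mitochondrial family, against 0.380 to 0.731 for all tested genes. All 70 cytosolic members had their highest level in the second library of a group (32 genes in that of Gel+US, 38 in that of Piezo Gel+US), as did 48.2% of all tested genes. Gel+US replicate 3 was the lowest library for 63 of the 70, and for 26.6% of all tested genes. Mitochondrial members most often peaked in Piezo Gel+US replicate 2 (30 of 73 genes, against 29.2% of all tested genes) or in the third Gel+US library (28 genes, against 24.4%), so the library that was lowest for most of the cytosolic family was among the highest for the mitochondrial one. Averaged deviations of the groups differed by 0.27 for the cytosolic family, where the SD between libraries of a group was 0.39, and by 0.05 for the mitochondrial family, where it was 0.11. Both differences were smaller than the spread between replicates.

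**Figure D3:**
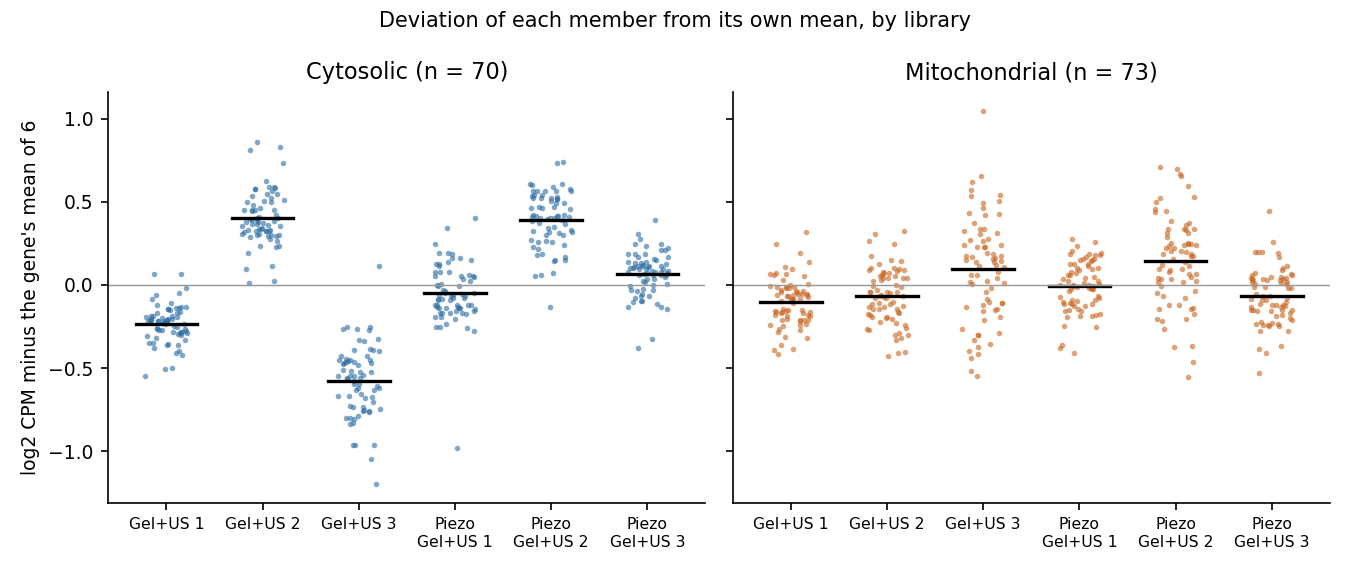
Deviation of each tested member from its own mean over 6 libraries, in log2 CPM (y axis), by library (x axis), for 70 cytosolic (left) and 73 mitochondrial (right) genes. Each point is a gene and each black line the mean of the genes in that library; the cytosolic lines run from -0.58 (the third Gel+US library) to 0.40 (the second), the mitochondrial lines from -0.10 to 0.15.

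Some marker lists ordered the libraries in a like way and others did not. Summed neuronal markers (10 of 10 with a row, none at 0) were 5784.5, 1970.5, 13582, 6697.9, 1518.5 and 3333.3 CPM. In this sum the library lowest in cytosolic ribosomal protein RNA was the highest, and the 2 highest libraries were the 2 lowest. Nefl and Nefm made up most of the sum. Of the 10 markers, 9 were highest in Gel+US replicate 3 and 1 in Gel+US replicate 1. The lowest library was Piezo Gel+US replicate 2 for 7 of them and Piezo Gel+US replicate 1 for 3. Summed fibroblast markers (6 of 6, none at 0) were 835, 6611, 671, 1070, 5835 and 1303 CPM. Their 2 highest libraries were the 2 highest in cytosolic ribosomal protein RNA, and their lowest was Gel+US replicate 3. Summed neutrophil markers (5 of 5, with Camp at 0 in Gel+US replicate 3) were 105, 272, 8.22, 150, 93.4 and 203 CPM, lowest in that library but second lowest in Piezo Gel+US replicate 2. Macrophage markers (5 of 6 with a row) were 271, 308, 173, 381, 69.7 and 303 CPM and microglial markers (3 of 5) 159, 104, 87.9, 129, 38.3 and 107 CPM, so a library highest in cytosolic ribosomal protein RNA was the lowest in both. Schwann cell markers (6 of 8) were 4441.5, 7134.7, 7173.4, 7194.8, 70539 and 12886 CPM, about equal in the Gel+US libraries with the most and the least cytosolic ribosomal protein RNA. Summed astrocyte markers (5 of 6 with a row) were 2500, 1428, 2539, 2308, 692 and 1680.5 CPM. Summed oligodendrocyte markers (6 of 6) were 43349, 26639, 38676, 51241, 30472 and 51730 CPM. In both lists the 2 lowest libraries were the 2 highest in cytosolic ribosomal protein RNA. The part of cell makeup in the ribosomal protein levels was not tested.

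Between the groups, the median log2 fold change of Piezo Gel+US over Gel+US was 0.25 for the cytosolic family, with 66 of 70 members above 0 (94.3%), while 47.1% of all tested genes were above 0 and their median was -0.02. No cytosolic member was called. None had an unadjusted p below 0.05, no member's groups were free of overlap (6.81% of all tested genes were), and the 95% interval of each of the 70 fold changes spanned 0. The median standard error of a member was 0.31, larger than the median fold change. Between the same groups, Schwann cell markers were above 0 in 6 of 6 tested (median log2 fold change 1.99, 5 with an unadjusted edgeR p below 0.05). Neuronal markers were below 0 in 10 of 10 (median -0.57) and ependymal markers in 4 of 4 tested (median -1.37). Astrocyte markers were below 0 in 5 of 5 (median -0.29), and Gfap, also listed, has no row. Microglial markers were below 0 in 3 of 3 and T and NK cell markers in 4 of 4 tested. Other lists were mixed. Markers above 0 were 4 of 6 for oligodendrocytes, 3 of 6 for fibroblasts and 3 of 5 for neutrophils. They were 2 of 5 for macrophages, 1 of 6 for B and plasma cells and 1 of 4 for endothelium. No marker was called, and the part of the markers in the ribosomal protein values was not tested. Since the members moved together, the 66 genes above 0 are close to 1 shared value and are not 66 separate observations. That value turned on single libraries: without Gel+US replicate 3 the median was 0.03 with 46 of 70 members above 0, without Piezo Gel+US replicate 2 it was 0.09 with 55 above 0, and without Gel+US replicate 2 it was 0.54 with all 70 above 0. Pairs of libraries with the same replicate number gave median differences of 0.17, 0.02 and 0.61 for pairs 1, 2 and 3.

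For the mitochondrial family the median log2 fold change was 0.04, with 42 of 73 members above 0 (57.5%), and was -0.02 with 35 above 0 when libraries were scaled by their totals only. No member was called, and 3 had an unadjusted p below 0.05 (2 higher in Piezo Gel+US, where the share of all genes was 1.38%, and 1 lower, where it was 0.721%). That count of 3 was 1 with the replicate block and 1 without the low-count filter, and it ran from 0 (without Gel+US replicate 3) to 2 when 1 library was left out. The groups of 11 members did not overlap (15.1%, against 6.81% of all tested genes): 9 lay entirely above in Piezo Gel+US (4.08% of all genes) and 2 entirely below (2.73%). The quartiles of the members were -0.09 and 0.21, against 0.15 and 0.30 for the cytosolic family and -0.25 and 0.19 for all tested genes. The cytosolic median exceeded the mitochondrial one by 0.21, where the SD of that difference between libraries of a group was 0.42. Without Gel+US replicate 3 the order turned, with the cytosolic median 0.07 below the mitochondrial one, and without Gel+US replicate 2 the difference was 0.53.

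**Figure D4:**
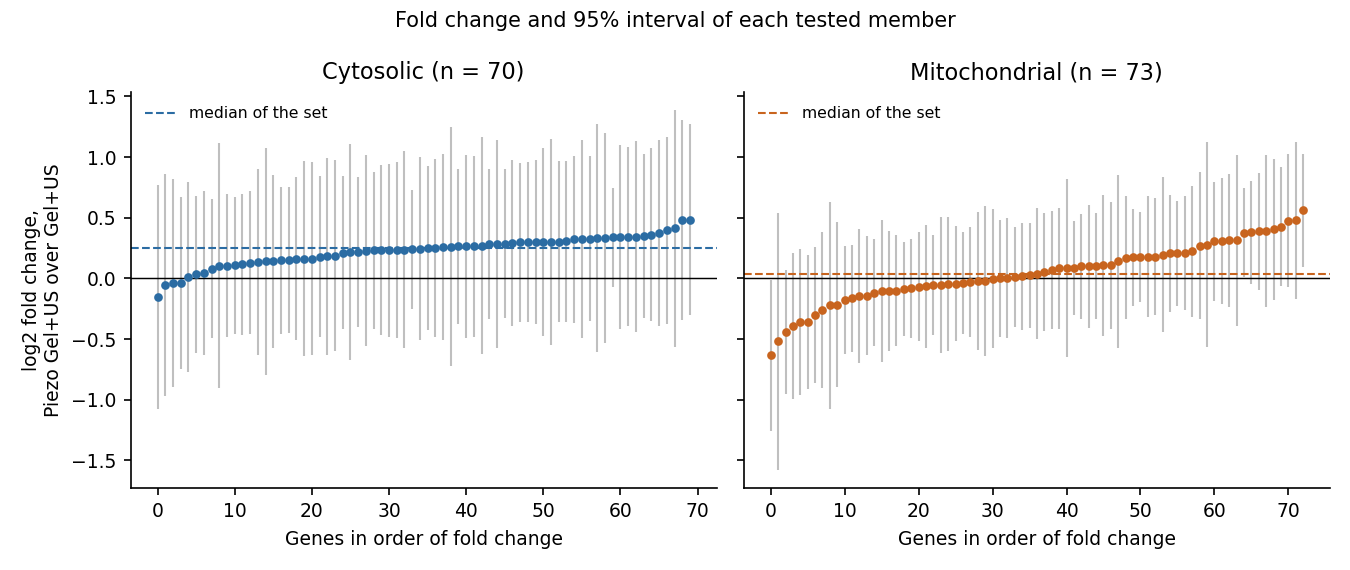
Log2 fold change of Piezo Gel+US over Gel+US (y axis) of the 70 tested cytosolic (left) and 73 tested mitochondrial (right) genes, in order of fold change (x axis); grey lines are 95% intervals, and dashed lines are the medians of 0.25 and 0.04. Every cytosolic interval spans 0, and 70 of the 73 mitochondrial intervals do.

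Among proteins of the large cytosolic subunit, 38 of 39 tested members had a fold change above 0, with a median of 0.26 on the log2 scale. Rpl22, which binds small structured RNAs and lies near the exit of the peptide tunnel, had the lowest p of the family. Its levels were 33.3, 40.5, 33.0, 39.9, 47.8 and 47.2 CPM, and Gel+US replicate 2 lay above Piezo Gel+US replicate 1, so the groups overlapped. The log2 fold change of Rpl22 was 0.34 ± 0.17 (SE), with an unadjusted p of 0.0915 and an adjusted p of 0.994 by edgeR. Rpl32 had the largest log2 fold change of the family, 0.48 ± 0.33 (SE), with levels of 61.4, 62.6, 30.02, 55.2, 89.2 and 71.03 CPM. Only Gel+US replicate 3 was low in Rpl32, and the other 5 libraries overlapped between groups. Rpl36 showed the block of the family in sharp form, at 106, 151, 48.1, 113, 168 and 124 CPM and a log2 fold change of 0.41 ± 0.41. Rpl17 (168, 185, 111, 177, 258 and 155 CPM; log2 fold change 0.35 ± 0.28) and Rpl23 (70.99, 105, 52.7, 79.7, 122 and 91.7 CPM; 0.36 ± 0.30) shared their lowest and highest libraries with Rpl36, and copies held 44.4% of the counts matched to Rpl23.

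The acidic stalk, which recruits and activates the GTPases of translation, is built from Rplp0, Rplp1 and Rplp2 on a base shared with Rpl12. All 4 members had fold changes between 0.16 and 0.25 on the log2 scale. Rplp0, often used as a reference gene in quantitative PCR, was at 206, 352, 163, 231, 339 and 236 CPM, with Gel+US replicate 2 the highest of all 6 libraries. The log2 fold change of Rplp0 was 0.16 ± 0.33, and it was below 0 (-0.07) when the third Gel+US library was left out and also (-0.05) when the second Piezo Gel+US library was. Rplp1 was at 199.6, 319.9, 218, 218, 384 and 263 CPM and Rplp2 at 108, 179.7, 84.7, 139, 175 and 129 CPM. For these too the second library of each group was the highest.

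Rpl5 and Rpl11, which bind the 5S ribosomal RNA and can together hold back Mdm2, the inhibitor of p53, followed the block. Rpl5 was at 221, 334, 179, 255, 349 and 302 CPM and Rpl11 at 139, 209, 98.5, 148, 223 and 165 CPM, with log2 fold changes of 0.31 ± 0.28 and 0.26 ± 0.31. Near the peptidyl transferase centre and the tRNAs, Rpl8 was at 286, 404, 229.9, 318, 439 and 347 CPM and Rpl10 at 294, 431, 247, 301, 447 and 352 CPM. No row has the symbol Rpl3. Rpl26, the cytosolic member with the highest level per kilobase, was at 284, 407, 259.7, 285, 368 and 377 CPM and had a log2 fold change of 0.11 ± 0.24. Rpl13a, which after release from the ribosome can silence inflammatory messenger RNAs, was at 430.0, 684, 352, 488, 784 and 625 CPM, and the groups overlapped. Rpl38, known from a mouse mutant with a short tail and altered translation of Hox messenger RNAs, departed from the block. Its levels were 36.9, 51.6, 20.9, 36.7, 32.2 and 41.2 CPM, with Piezo Gel+US replicate 2 the second lowest, and its log2 fold change was 0.01 ± 0.33.

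In the small cytosolic subunit, 28 of 31 members had a fold change above 0, with a median of 0.22 on the log2 scale. Rps16 was at 269, 399, 199, 303, 550.2 and 356 CPM, with a log2 fold change of 0.48 ± 0.34. Its Gel+US replicate 2 exceeded Piezo Gel+US replicates 1 and 3. Rps14, a platform protein and the cytosolic member with the second-highest level per kilobase, was at 255, 400.4, 210.0, 273, 442 and 324 CPM. Rps6, the target of S6 kinase downstream of mTOR, was at 316, 461, 293, 330.1, 443 and 397 CPM with a log2 fold change of 0.13 ± 0.25. Rps3, which lines the channel where messenger RNA enters, was at 289, 407, 238, 301, 410.2 and 376 CPM. Rpsa, the laminin receptor precursor on the solvent side, was at 406, 544, 314, 424, 661 and 498 CPM with a log2 fold change of 0.33 ± 0.29, and Rps26 at 2.05, 3.28, 1.80, 2.88, 3.12 and 2.28 CPM. Each of these ran from Gel+US replicate 3 at the bottom to a second replicate at the top.

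A few small-subunit members did not follow the block in full. Rps27a, which is made as a fusion with ubiquitin, was at 199, 218, 234, 109, 325 and 283 CPM, and Piezo Gel+US replicate 1 alone was low. It was the only cytosolic member lowest in that library, and 18.1% of the counts matched to it were in copies. Rps29 was at 46.8, 112, 47.4, 73.5, 64.3 and 47.4 CPM and Rps28 at 21.2, 53.5, 22.1, 33.7, 31.7 and 27.8 CPM. In both, Gel+US replicate 2 stood well above the other 5 libraries, and their log2 fold changes, -0.15 ± 0.39 and -0.05 ± 0.38, were the lowest of the family. Rpl39 (-0.04 ± 0.36) and Rps12 (-0.04 ± 0.30) were the other 2 members with a log2 fold change below 0, each with its highest level in Gel+US replicate 2. Rps29, Rps28, Rpl39 and Rpl38 have some of the shortest messenger RNAs of the family, between 355 and 415 bases in the deposited lengths. Split at the median length of 640 bases, the 35 shorter cytosolic members had a median log2 fold change of 0.23 and the 35 longer ones 0.26. Of the shorter members 31 were above 0, and of the longer ones all 35.

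The proportion of the subunits varied less than their levels. The summed large-subunit level was 1.30, 1.29, 1.22, 1.35, 1.30 and 1.29 times the small-subunit level in the cytosolic family, a range far narrower than that of either sum. In the mitochondrial family the ratio was 1.93, 1.95 and 1.94 in Gel+US and 1.88, 1.81 and 1.86 in Piezo Gel+US, so these groups did not overlap. The ratio was picked out after its values were seen and was not tested. By promoter feature, cytosolic members with the oligopyrimidine start had a median log2 fold change of 0.24 (22 of 23 above 0). Tested members whose window lacked it had 0.23 (31 of 33 above 0), and some of these had a run within 5 bases of the start. Where such a near run was counted too, the medians were 0.235 with it (36 of 38 above 0) and 0.242 without (17 of 18).

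Mitochondrial members with the lowest p-values went in both directions. Mrpl54, a protein of the large mitochondrial subunit, was at 14.0, 13.6, 12.7, 17.4, 23.4 and 18.5 CPM. Every Piezo Gel+US library lay above every Gel+US library, and the 3 Gel+US libraries lay close together. The log2 fold change of Mrpl54 was 0.56 ± 0.20 (SE), with an unadjusted p of 0.0251 and an adjusted p of 0.994 by edgeR. Mrps7, a small-subunit protein at the site where tRNAs and messenger RNA leave, was at 36.7, 35.7, 38.9, 48.1, 52.4 and 44.0 CPM, also without overlap. Its log2 fold change was 0.38 ± 0.15 (SE), with an unadjusted p of 0.0436 and an adjusted p of 0.994 by edgeR. Mrpl1, of the mobile stalk that guides spent tRNAs out, went the other way at 7.72, 9.39, 12.3, 5.98, 7.04 and 5.95 CPM. All 3 Piezo Gel+US libraries lay below all 3 of Gel+US, with a log2 fold change of -0.63 ± 0.26 (SE), an unadjusted p of 0.0473 and an adjusted p of 0.994 by edgeR. Over the 6 fits that left out 1 library, the log2 fold change ran from 0.41 to 0.63 for Mrpl54, from 0.31 to 0.44 for Mrps7 and from -0.78 to -0.45 for Mrpl1. Groups that do not overlap fix the sign in such fits, so the sign is no sign of stability.

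Other members without overlap had smaller differences or wider errors. Mrpl27, which reaches towards the peptidyl transferase centre, was at 22.0, 25.3, 21.2, 28.9, 33.4 and 26.9 CPM, with a log2 fold change of 0.38 ± 0.18. Mrpl23, at the exit of the peptide tunnel, was at 7.82, 10.9, 7.57, 12.1, 12.2 and 12.3 CPM. The Piezo Gel+US libraries of Mrpl23 were almost equal and Gel+US replicate 2 was near them, and 29.2% of the counts matched to it were in copies. Its log2 fold change was 0.48 ± 0.23. Mrps28 (0.39 ± 0.20) and Mrps26 (0.42 ± 0.21) had log2 fold changes of like size. Mrps5, Mrpl22 and Mrpl2 were separated by narrow gaps, with log2 fold changes from 0.18 to 0.21. Mrpl47, also at the tunnel exit, was the second member entirely below, at 13.5, 13.9, 18.3, 12.1, 10.0 and 11.5 CPM and a log2 fold change of -0.44 ± 0.21. Mrpl23 and Mrpl47, neighbours at the same site of the large subunit, had differences of opposite sign. Neither was called or had an unadjusted edgeR p below 0.05, and both were picked by their values.

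**Figure D5:**
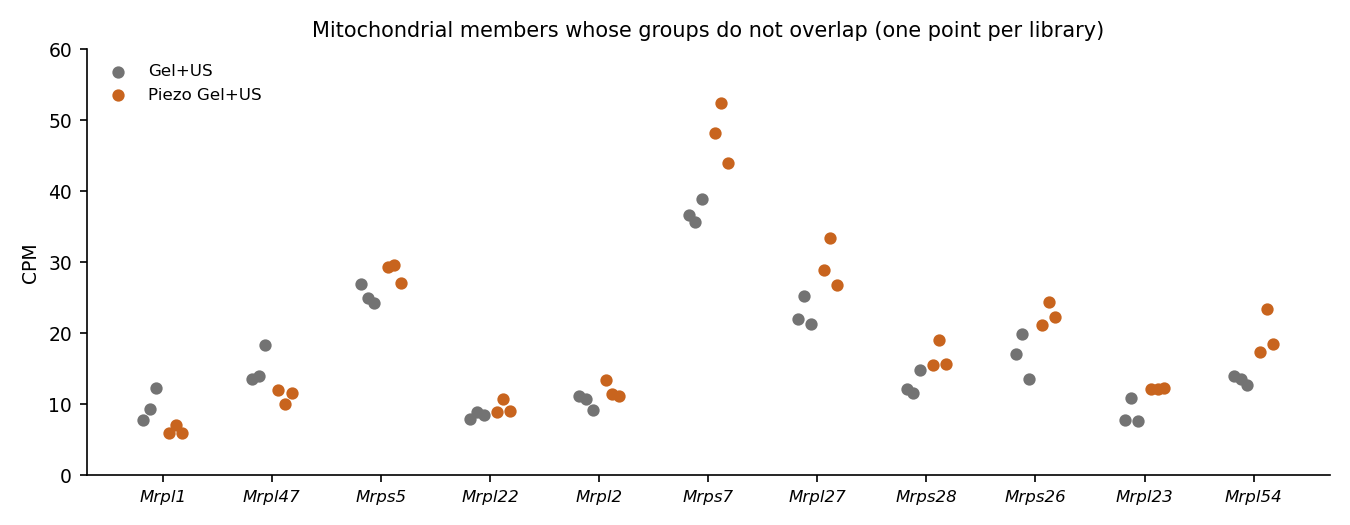
Level in CPM (y axis, from 0) in each library of the 11 mitochondrial members (x axis) whose 3 Gel+US and 3 Piezo Gel+US libraries do not overlap; each point is 1 library. Mrpl1 and Mrpl47 lie lower in Piezo Gel+US and the other 9 higher, with the widest gap in CPM for Mrps7, from 35.7 to 38.9 against 44.0 to 52.4.

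The groups overlapped in the 3 mitochondrial members with the highest levels per kilobase and in Mrpl10, Mrpl11, Mrpl12, Mrps12, Mrpl45 and Mrpl44. Mrpl52, the member with the highest level per kilobase, was at 19.6, 26.2, 20.8, 27.5, 42.1 and 23.1 CPM, with Piezo Gel+US replicate 2 high, and a log2 fold change of 0.48 ± 0.27. Mrpl33 was at 16.8, 18.8, 20.2, 16.2, 20.4 and 16.6 CPM and Mrpl20 at 25.0, 25.3, 28.1, 27.4, 35.4 and 27.6 CPM, with log2 fold changes of -0.07 ± 0.19 and 0.21 ± 0.18. The stalk proteins Mrpl10 and Mrpl12 (the latter also known to bind the mitochondrial RNA polymerase) had log2 fold changes of -0.04 ± 0.18 and -0.03 ± 0.19, and Mrpl11 0.11 ± 0.22. Mrpl12 was at 33.2, 35.3, 44.5, 34.5, 42.1 and 34.0 CPM, highest in Gel+US replicate 3. Mrps12, of the decoding site, was at 8.07, 9.16, 8.62, 11.0, 12.1 and 8.95 CPM, with a log2 fold change of 0.31 ± 0.22. Mrpl45, which ties the ribosome to the inner membrane, was at 35.3, 30.8, 50.4, 41.9, 38.6 and 31.6 CPM, again highest in Gel+US replicate 3. Mrpl44, which has an RNase III-like fold, had a log2 fold change of 0.02 ± 0.19. At the low end of the levels, Mrps10 was at 4.11, 3.17, 8.97, 3.95, 4.18 and 3.21 CPM and Mrpl50 at 5.11, 3.78, 6.92, 5.76, 4.53 and 3.26 CPM, and in both Gel+US replicate 3 was highest.

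Within the mitochondrial family the shorter members had the higher median fold change, by an amount that differed between libraries. Split at the median length of 1074 bases, 26 of the 37 shorter members were above 0 with a median log2 fold change of 0.18, and 16 of the 36 longer members with a median of -0.04. Between libraries of the same replicate number, the median log2 differences of shorter and longer mitochondrial members were 0.18 and 0.03 for pair 1. They were 0.23 and 0.20 for pair 2 and -0.03 and -0.28 for pair 3. Over all tested genes, split at 2371 bases, the median log2 fold changes were 0.01 for the shorter and -0.05 for the longer. The part of length in the mitochondrial differences was not tested beyond this split. The members of the mitochondrial ribosome that carry other names (Dap3, Ptcd3, Chchd1, Aurkaip1, Gadd45gip1 and the Mrps18 genes) were above 0 in 3 of 8, with a median of -0.04. Dap3, a GTP-binding protein of the small subunit, was at 21.1, 21.7, 22.8, 20.5, 16.3 and 18.5 CPM, every Piezo Gel+US library below every Gel+US library, with a log2 fold change of -0.24 ± 0.17. Aurkaip1 was at 33.0, 35.5, 26.6, 32.8, 47.1 and 35.6 CPM, with overlap.

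The wider machinery of translation was listed to place both families, and no gene of these lists had an adjusted p below 0.05. Ribosomal proteins outside the name rule were above 0 in 6 of 8 tested genes, with a median log2 fold change of 0.17. Fau, which encodes a ribosomal protein as a fusion with a ubiquitin-like protein, had the library order of the block, at 96.4, 135, 74.6, 113, 137 and 118 CPM. A list of cytosolic elongation factors, which also holds the TOP messenger RNA Tpt1 of another class, was above 0 in 6 of 8, with a median of 0.12. Eef1a1, which brings aminoacyl-tRNA to the ribosome, was at 2598, 3605, 2263, 2845, 3739 and 3359 CPM, and Eef2, which drives translocation, at 1618, 1922, 1374, 1763, 2178 and 1873 CPM. Both were highest in the second library of each group and lowest in Gel+US replicate 3. The other 2 were below 0. Eef1a2, the form of Eef1a1 made in neurons and muscle, was at 337, 212, 568, 359, 161 and 379 CPM, highest in Gel+US replicate 3, with a log2 fold change of -0.31 ± 0.46. Eef1b2, an exchange factor for Eef1a1, was at 90.4, 89.9, 88.7, 75.8, 75.4 and 73.5 CPM. All Piezo Gel+US libraries were below all of Gel+US, with a log2 fold change of -0.26 ± 0.14 and an unadjusted edgeR p of 0.0981 (adjusted p 0.994). Its fellow subunit Eef1d lay without overlap in the other direction, at 77.1, 84.0, 81.6, 84.2, 96.2 and 91.6 CPM.

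Initiation factors were above 0 in 16 of 24 tested genes, with a median log2 fold change of 0.07. Eif2s1, the subunit of eIF2 that stress kinases phosphorylate, had the lowest p of all these lists, at 22.3, 20.6, 21.9, 13.7, 16.4 and 15.9 CPM. All 3 Piezo Gel+US libraries were below all 3 of Gel+US, with a log2 fold change of -0.49 ± 0.17 (SE), an unadjusted p of 0.0258 and an adjusted p of 0.994 by edgeR. Eif1, which guards start codon choice, was at 297, 314, 277, 289, 701 and 341 CPM, high in Piezo Gel+US replicate 2 alone. Genes of ribosome assembly and ribosomal RNA synthesis were above 0 in 17 of 33, with a median of 0.01, about as many above 0 as below. Polr1a, the largest subunit of RNA polymerase I, was at 41.5, 43.4, 44.3, 39.4, 33.1 and 31.9 CPM, below in Piezo Gel+US without overlap (log2 fold change -0.31 ± 0.16), and Gar1, a protein of pseudouridylation particles, at 4.06, 3.17, 2.10, 4.11, 5.38 and 4.55 CPM, above without overlap (0.59 ± 0.35). Regulators of TOP messenger RNAs were above 0 in 5 of 9, with a median of 0.00. Eif4ebp1, which blocks cap binding when mTOR is inactive, was at 9.27, 16.2, 3.31, 11.6, 19.1 and 14.8 CPM, with the library order of the block, while Larp1 was at 218, 187, 274, 219, 220.1 and 202 CPM, highest in Gel+US replicate 3. Mitochondrial translation factors were above 0 in 8 of 24, with a median of -0.03. Lrpprc, which stabilises mitochondrial messenger RNAs, was at 119.6, 104, 184, 117, 73.8 and 114 CPM, and Noa1, a GTPase of mitoribosome assembly, at 17.6, 16.0, 20.6, 16.0, 14.3 and 14.1 CPM, both highest in Gel+US replicate 3.

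The mitochondrial genome's own RNA could not be set beside these values. Its 13 protein genes had between 0 and 7 counts in a library, all 13 together. The 2 mitochondrial ribosomal RNAs took 0.266%, 0.332%, 0.132%, 0.184%, 0.129% and 0.246% of counts, in libraries made by selecting poly(A) RNA.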

How the data were processed

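Bulk RNA-seq libraries were strand-specific and made from poly(A) RNA, per the labels' protocols. The authors deposited raw read counts per gene, made with fastp 0.19.7, HISAT2 2.0.5 and featureCounts 1.5.0-p3, per the submitters' processing notes, which also name DESeq2 1.20.0. The genome build and the counting strand are not given in the sources used here, so table coordinates are not printed. Groups came from the labels.

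The members and lists were chosen with earlier results of these data known. Counts were fitted in edgeR 4.0.16 (R 4.3.3, limma 3.58.1) over all 6 libraries, with TMM scaling, genes kept by filterByExpr (minimum count 10, minimum total 15) and a robust quasi-likelihood test. P-values were adjusted by Benjamini-Hochberg over 17066 tested genes; the threshold was 0.05. The biological coefficient of variation was 0.382. CPM values use the TMM-scaled library size, and deviations add a prior count of 2 before the log. Each standard error was derived from the test, as the size of the log2 fold change divided by the square root of the F statistic. The 95% intervals were built from that standard error. P-values rest on the spread between 3 libraries a group, with each gene's estimate of that spread drawn towards a trend over all tested genes. Families are described by counts and medians, with no set test.

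Genes were named by lowest p, highest and lowest fold change, highest and lowest level per kilobase, lack of overlap, and a list of members with known roles; some others were added after their values were seen. Libraries with the same replicate number deviated together (r = 0.253, 0.296 and 0.251 across genes, highest other pair 0.198). The main fit compared the groups without pairing. The replicate block, which pairs libraries by number, was run only as an alternative. Pairing by number rests on these correlations and on no statement in the labels. Alternatives were library totals only, upper-quartile factors, DESeq2 1.42.0, no low-count filter, the non-robust test, the replicate block, copies added to members, and leaving out each library. Promoter windows are from RefSeq (GRCr8), matched by symbol, with 3 duplicate entries dropped. The edgeR script was tested on simulated counts, drawn with less variation between replicates than these libraries have and with no shared movement of genes. That test checks the code and not how the fit performs at the spread of these data.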

Additional observations from a re-analysis of the deposited data

How the results depend on the processing

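Calls at the adjusted threshold numbered 0 in each of the 13 alternatives, where the lowest adjusted p ran from 0.181 (DESeq2) to 1.0. The replicate block raised the genes with an unadjusted p below 0.05 from 359 to 986 and gave a cytosolic median log2 fold change of 0.29 and a mitochondrial one of 0.02, and it changed no call. DESeq2 and the fit without a filter, each over 23240 genes, had 652 and 496 genes with an unadjusted p below 0.05, and leaving out 1 library gave 141 to 775. Over the fits without 1 library, the cytosolic median ran from 0.03 to 0.54 and the mitochondrial one from -0.04 to 0.11. Their difference ran from -0.07 to 0.53. Without Gel+US replicate 2, 19 of 70 cytosolic members had an unadjusted edgeR p below 0.05, against 775 of 17389 tested genes (4.46%). Since the members moved together, these are not 19 separate observations. Scaling by library totals gave 0.17 and -0.02 for the medians and moved 2 named genes below 0, Rpl38 (-0.0531) and Mrpl44 (-0.0425); the block moved Rps28 above 0 (0.0828). Log2 fold changes of 15 named members changed sign without 1 library, with these ranges: Rpl26 -0.0228 to 0.33, Rpl38 -0.28 to 0.34, Rplp0 -0.0683 to 0.54, Rplp1 -0.0386 to 0.46, Rps6 -0.00896 to 0.35, Rps27a -0.15 to 0.47, Rps28 -0.28 to 0.51, Rps29 -0.38 to 0.38, Mrps10 -0.80 to 0.0454, Mrpl50 -0.46 to 0.0151, Mrpl12 -0.14 to 0.10, Mrpl10 -0.12 to 0.07, Mrpl11 -0.0528 to 0.28, Mrpl45 -0.21 to 0.17 and Mrpl44 -0.0799 to 0.0763. The cause of these changes was not tested. With 3 libraries a group and a median standard error of 0.31, a shift of the size of the cytosolic median was not detectable for a single member.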

Other observations

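The cytosolic ribosomal proteins Rpl3, Rpl7, Rpl7a, Rpl29 and Rpl35a have no row under their symbol and appear only as rows named by locus number and described as that protein or similar to it. These rows were picked out after the table was seen. Summed over 9 rows, Rpl3, of the peptidyl transferase centre, was at 213, 271, 193, 225, 281 and 267 CPM. Rpl7 (42 rows) was at 217, 316, 175, 239, 383 and 290 CPM, and Rpl7a (68 rows) at 87.5, 119, 63.6, 90.5, 137 and 111 CPM. Rpl29 (41 rows) was at 71.5, 91.3, 40.6, 58.8, 95.1 and 104 CPM, and Rpl35a (27 rows) at 52.9, 89.8, 41.2, 58.0, 102 and 63.1 CPM. All 5 were lowest in Gel+US replicate 3, as were 63 of the 70 tested cytosolic members. The log2 ratios of the mean sums, Piezo Gel+US over Gel+US, were 0.19, 0.37, 0.33, 0.34 and 0.28 in the same order, within the range of the named members, and were not tested.

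Within the ribosomal proteins outside the name rule, 2 variants expressed at a few CPM had the largest differences. Rpl26l1, a close relative of Rpl26, was at 1.90, 0.666, 1.55, 2.08, 2.92 and 2.33 CPM, above in Piezo Gel+US without overlap. Its log2 fold change was 0.82 ± 0.47 (SE). Rpl10l, a retrogene of Rpl10 known from the testis, was at 2.71, 6.16, 2.00, 1.17, 3.07 and 2.64 CPM, with a log2 fold change of -0.66 ± 0.57.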
